A study of Homo sapiens with 8 samples.

Results

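The collagen, laminin and integrin genes were taken by symbol from GENCODE release 44 (COL, a number, A and a number; LAMA, LAMB or LAMC and a number; ITGA or ITGB with a number or letter code). The rule found 82 of the 20046 protein-coding genes, namely 44 collagens, 12 laminins and 26 integrins. Genes with other names, such as ITGBL1, which is not an integrin subunit, were left out. IGF2BP1 binding was measured in H1299, a human non-small cell lung carcinoma line that the labels give as WT. The cells received 0.01% DMSO or 1.5 µM AVJ16, an inhibitor of IGF2BP1, for 24 h, and were crosslinked with 400 mJ/cm2 of UV light at 254 nm. Each treatment had 2 libraries of RNA immunoprecipitated with IGF2BP1 (IP) and 2 size-matched input (SMInput) libraries, 8 samples in all from 1 cell line, prepared in batches from a single thaw. The deposited data are 1 list of peaks per treatment with both replicates together, so neither a spread between replicates nor a test of the treatment could be given. The members held 112 of the 22311 peaks listed with DMSO and 134 of the 22123 listed with AVJ16.

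Each peak carries a log2 fold enrichment of IP over SMInput, called the enrichment here, and a −log10 p of the same comparison. The lowest enrichment was 3.00 in both lists, which is 8-fold. The smallest −log10 p was 3.01 in the DMSO list and 3.00 in the AVJ16 list. A gene without a peak may be unbound, unexpressed or below these thresholds, and these cannot be told apart. A peak in only 1 list may likewise be just under a threshold in the other. Fewer copies of an RNA and less binding per copy cannot be told apart from the lists alone. Enrichments were normalized separately for each list, and the files do not give the sequencing depth. Shares are given with 95% Wilson intervals for counting error alone.

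Collagens are triple-helical proteins of the extracellular matrix, laminins are alpha, beta and gamma chain heterotrimers of basement membranes, and integrins are alpha and beta subunit pairs by which cells hold on to both. Type IV collagen and laminin form the networks of the basement membrane that a carcinoma cell meets when it invades. IGF2BP1 is an oncofoetal RNA binding protein that holds target mRNAs mainly through their 3'UTRs and is known to stabilize many of them.

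The RNA letters at the centre of the most enriched peak of 10 members are shown, since the results below turn on these stretches. The COL4A2 and LAMB1 peaks are from the AVJ16 list and the others from the DMSO list. The letters are up to 30 nt from the middle of the peak, read 5′ to 3′ from GRCh38 (hg38) on the strand of the gene, and capitals mark a match to UCAUUC or to the shorter word CAUU. These were 2 of 5 words searched for in the windows of all 3'UTR peaks, and no printed piece held any of the other 3. The type IV and type VI collagen pieces, the LAMC1, ITGA4, ITGA6 and ITGB5 pieces lie in 3'UTRs, the LAMB1 piece in coding exon 4, and the COL18A1 piece in an intron. ITGAV is shown as the member piece that holds UCAUUC.
COL4A1 (chr13:110149515-110149544, minus strand): cuaaaccaaaaauuauguguugccaaaacc
COL4A2 (chr13:110512968-110512997, plus strand): cugacugcccccuccuguguaacgacuaca
COL6A1 (chr21:46004586-46004615, plus strand): cCAUUggccucugucucguuuugggaaacc
COL18A1 (chr21:45440898-45440927, plus strand): agggcuggaaccugggggcaagaucagcac
LAMC1 (chr1:183143267-183143294, plus strand): ugcaucuccuaccccucuuccuucuaag
LAMB1 (chr7:107998359-107998388, minus strand): ccgccuuaagauuugguggcaaucugaaaa
ITGA4 (chr2:181538507-181538536, plus strand): acccaugucuagugggcaccccugcaugcu
ITGA6 (chr2:172504802-172504826, plus strand): cugcucacgucaaaugcauacaagu
ITGAV (chr2:186679855-186679884, plus strand): caUCAUUCuaccuguguuaugaaacuacuu
ITGB5 (chr3:124763164-124763193, minus strand): ugaaauaaaaagauccugCAUUuauggugu
The LAMC1 and ITGA6 lines are whole peaks, of 28 and 25 nt. The LAMC1 piece was the richest of these lines in pyrimidines, with 78.6% C or U, whereas the COL18A1 piece held 33.3%.

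IGF2BP1 peaks were found in 20 of the 82 genes with DMSO (24.4%, interval 16.4 to 34.7) and in 22 with AVJ16 (26.8%, interval 18.4 to 37.3). Over all protein-coding genes the shares were 25.8% with DMSO and 23.2% with AVJ16, so the members were near the background in both lists. Both lists held a peak in 18 members, against 20.4% of all genes. Of the 20 members bound with DMSO, 18 were also bound with AVJ16, where 79.1% of all DMSO-bound genes were. COL18A1 and COL4A5 had peaks with DMSO only, as did 5.4% of all genes. COL25A1, COL5A2, ITGA3 and ITGB3 had peaks with AVJ16 only, as did 2.82% of all genes. The other 58 members, 34 collagens, 8 laminins and 16 integrins, had no peak in either list.

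**Figure D1:**
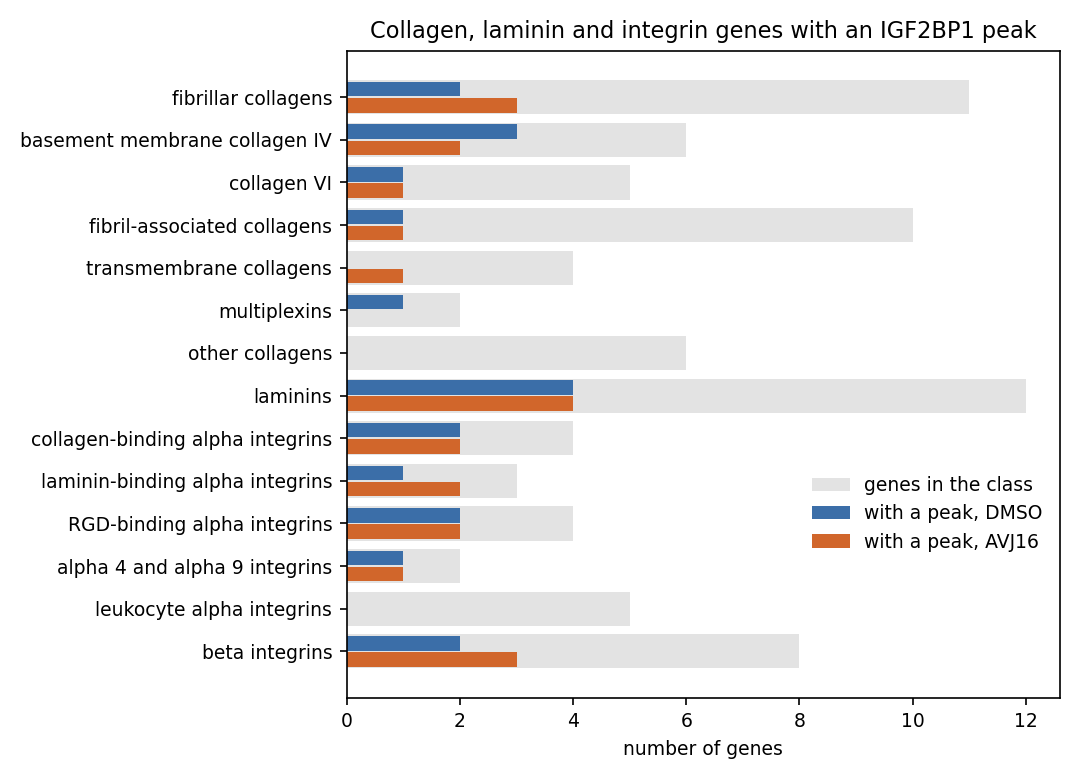
Number of genes per class (horizontal axis) with at least 1 IGF2BP1 peak with DMSO (blue) or AVJ16 (orange), over the number of genes in the class (grey). Laminins reach 4 of 12 genes in both lists, while leukocyte alpha integrins (5 genes) and the remaining collagens (6 genes) have none.

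Among the collagens, 8 of 44 were bound in each list (18.2%, interval 9.51 to 32.0). The bound genes were 3 of the 6 type IV chains, COL4A1, COL4A2 and COL4A5, the type VI chain COL6A1, the fibrillar chains COL3A1, COL5A1 and, with AVJ16, COL5A2, and 3 others, COL12A1, COL18A1 and COL25A1. COL1A1 and COL1A2, the chains of type I collagen, had no peak, and neither did COL6A2 and COL6A3, which assemble with COL6A1. Among the laminins, 4 of 12 were bound in each list (33.3%, interval 13.8 to 60.9), among them LAMA4, LAMB1 and LAMC1. LAMB1 and LAMC1 are the beta and gamma chains of laminin-111, among other trimers. The alpha chain of laminin-111, LAMA1, had no peak, while the alpha chain LAMA4 had a peak in both lists. Among the integrins, 8 of 26 were bound with DMSO (30.8%) and 10 with AVJ16 (38.5%). The alpha subunits of leukocytes (ITGAD, ITGAE, ITGAL, ITGAM and ITGAX) and their beta partners ITGB2 and ITGB7 were without peaks, as were ITGB4, ITGB6 and ITGB8.

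Peaks of the members lay mostly in 3'UTRs. With DMSO, 94 of 112 did (83.9%, interval 76.0 to 89.6), where the share over all protein-coding genes was 75.8%. With AVJ16, 119 of 134 did (88.8%, interval 82.4 to 93.1), against 76.2% overall. The DMSO share was 77.5% without LAMC1 and ITGA6 and 76.3% with touching peaks joined, and the AVJ16 share was then 83.1% and 85.1%. The shares over all protein-coding genes are for unjoined peaks with every gene kept, so they are not a like background for these values. Coding sequence held 12 peaks with DMSO and 15 with AVJ16. The 6 remaining DMSO peaks were intronic and all in COL18A1. Along the 3'UTR the median peak lay at 34.3% of the way from the stop codon with DMSO and at 37.3% with AVJ16, and the corresponding values over all genes were 42.2% and 42.0%. Peaks of the same gene share one RNA and often touch, so they are not independent: joined where they touch, the 112 and 134 peaks became 76 and 87 sites.

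Peak numbers differed between the lists in each of the 3 families. Collagens had 40 peaks with DMSO and 33 with AVJ16, laminins 23 and 33, and integrins 49 and 68. In length, however, the peaks of all members together covered 8203 nt with DMSO and 8256 nt with AVJ16, and the median peak was 71 nt with DMSO and 57 nt with AVJ16. Collagens covered 3134 nt with DMSO and 2197 nt with AVJ16, of which 1554 nt were in both lists. That is 49.6% of the collagen length listed with DMSO and 70.7% of that listed with AVJ16. For laminins, 1618 and 1924 nt were covered, and the 1343 nt in both were 83.0% of the DMSO and 69.8% of the AVJ16 length. For integrins, 3451 and 4135 nt were covered, and the 2880 nt in both were 83.5% of the DMSO and 69.6% of the AVJ16 length. COL18A1, without a peak under AVJ16, accounted for 455 nt of the collagen length with DMSO.

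**Figure D2:**
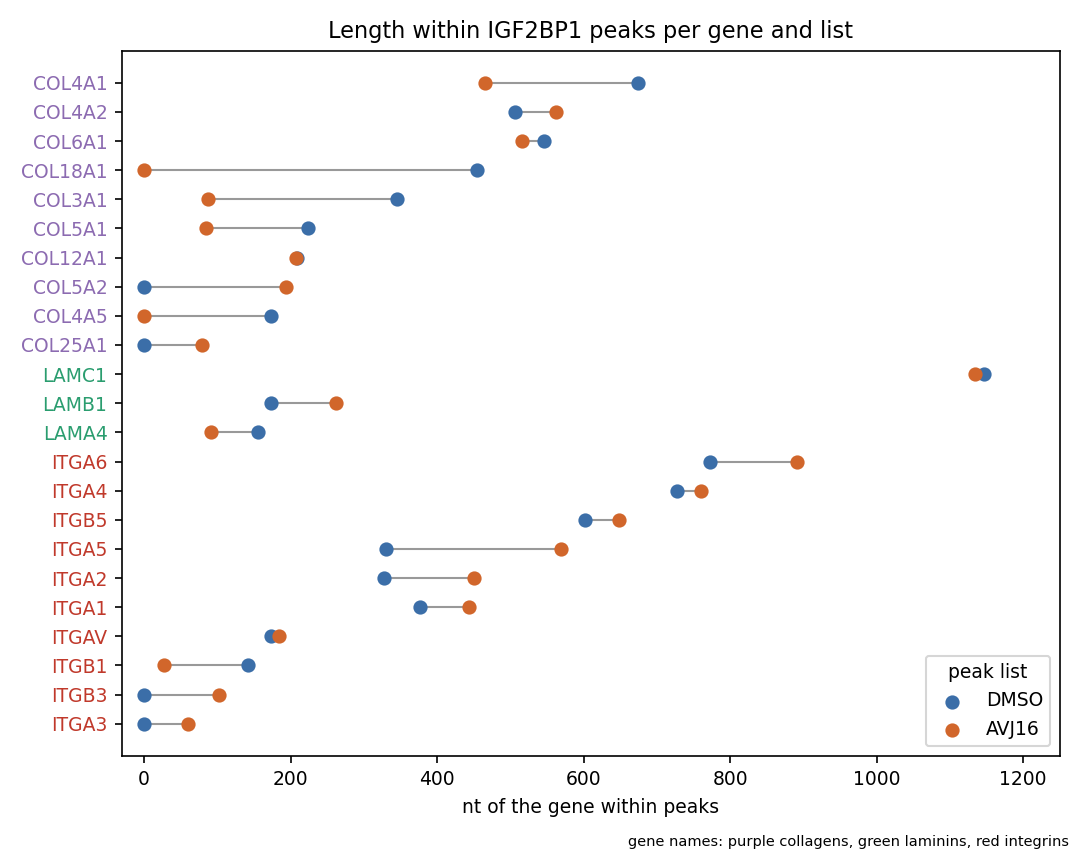
Nucleotides within IGF2BP1 peaks (horizontal axis) for the genes named in the text, with DMSO (blue) and AVJ16 (orange) joined by a line, and with 0 where a list has no peak. LAMC1 has the longest covered length in both lists, 1146 and 1134 nt, and ITGA5 lies further right with AVJ16 than with DMSO.

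A DMSO peak was called shared if an AVJ16 peak overlapped it by at least 1 nt on the same strand. Of the 112 member peaks with DMSO, 90 were shared (80.4%, interval 72.0 to 86.7), against 66.2% of DMSO peaks in all protein-coding genes. Of the 134 with AVJ16, 106 had a DMSO partner (79.1%, interval 71.5 to 85.1), against 70.9%. Without LAMC1 and ITGA6 these shares were 73.75% with DMSO and 73.0% with AVJ16. With touching peaks joined they were 73.7% and 72.4%. The shares over all genes are for unjoined peaks with every gene kept, so they are not a like background for these settings. Collagens had the lowest share in the DMSO list, with 24 of 40 peaks shared (interval 44.6 to 73.7%), while laminins had 22 of 23 (95.7%, interval 79.0 to 99.2) and integrins 44 of 49 (89.8%, interval 78.2 to 95.6). Of the 16 collagen peaks without a partner, 6 were the intron peaks of COL18A1. In the AVJ16 list the order was the other way, with a partner for 28 of 33 collagen peaks (84.8%), 27 of 33 laminin peaks (81.8%) and 51 of 68 integrin peaks. Since the peaks of a gene are not independent, no test was made of this difference. The 22 DMSO peaks without a partner had a median enrichment of 3.35, close to the threshold of the lists, and the 90 with one had 3.87. For AVJ16 these medians were 3.54 over 28 peaks and 3.70 over 106.

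At the 90 shared peaks the enrichment with AVJ16 minus that with DMSO had a median of -0.10, a range of -1.73 to 1.55 and an SD of 0.59 over peaks. Over all 14520 shared peaks in protein-coding genes the median was -0.060 and the SD 0.56. A difference of more than 0.5, the size the study used as its limit, was lower with AVJ16 at 21 member peaks (23.3%, interval 15.8 to 33.1) and higher at 10 (11.1%, interval 6.15 to 19.3). The study applied its limit to read counts over the same cluster and also required a test between replicates. Here it was applied to listed enrichments of overlapping peaks without a test, so the counts are not the study's differentially bound peaks. Of all shared peaks, 20.1% were lower and 12.6% higher, so the members as a whole were near the background in both directions. Among collagens, 9 of 24 shared peaks were lower (37.5%, interval 21.2 to 57.3) and 2 were higher. Among laminins, 2 of 22 were lower and 4 higher, and among integrins, 10 of 44 were lower and 4 higher. The median difference was -0.23 in collagens, 0.15 in laminins and -0.073 in integrins.

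These differences were also split by the starting enrichment, that with DMSO. This value is itself subtracted in the difference, so lower values at higher starting enrichments can come from the calculation alone. The split is therefore a description and not a result about strong sites. Of all shared peaks with a DMSO enrichment of 4.5 or more, 1215 of 2428 were lower with AVJ16 by more than 0.5, while from 4 to 4.5 the share was 34.5%, from 3.5 to 4 it was 13.8%, and from 3 to 3.5 no peak could be, since the list ends at 3. Shared collagen peaks had a median DMSO enrichment of 4.23, compared with 3.62 for laminins, 3.68 for integrins and 3.80 for all shared peaks. At 4.5 or more, 7 of 9 collagen peaks, 0 of 1 laminin peak and 5 of 7 integrin peaks were lower by more than 0.5. From 4 to 4.5, 1 of 8 collagen peaks, 2 of 4 laminin peaks and 5 of 10 integrin peaks were. The part of the starting enrichment in the difference between families was not tested.

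**Figure D3:**
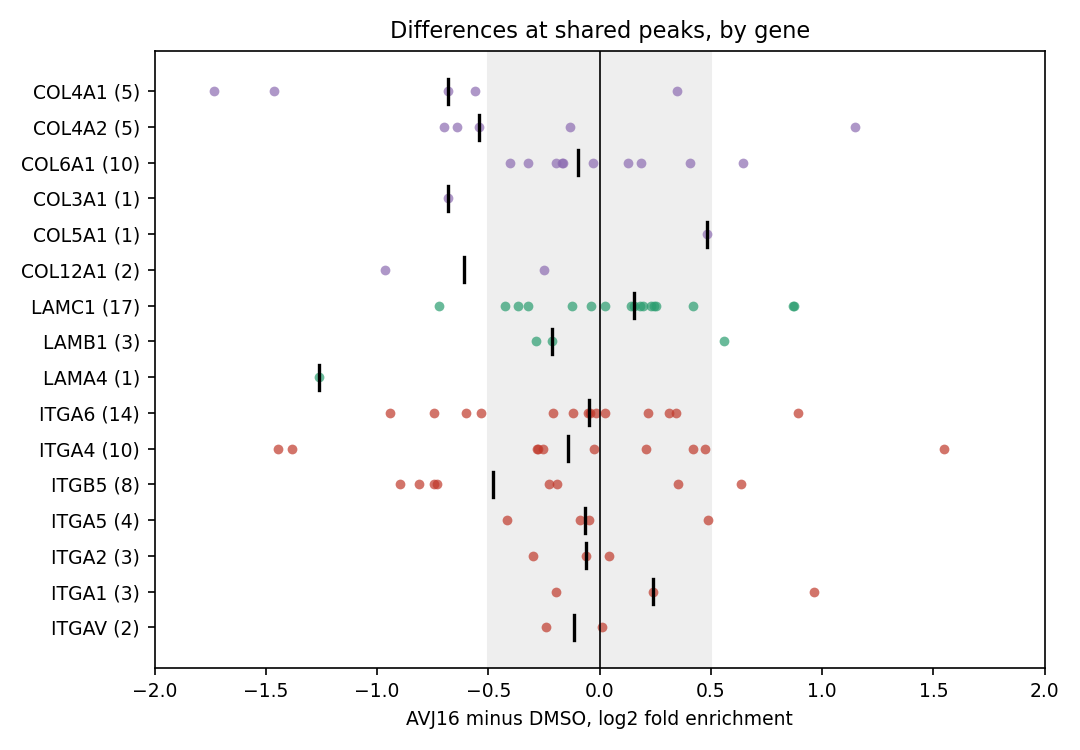
Enrichment (log2) with AVJ16 minus DMSO (horizontal axis) at the shared peaks of the genes named in the text, by gene, with the number of shared peaks in parentheses, a black tick at the gene's median, and the range within 0.5 of 0 in grey. COL4A1, COL4A2 and ITGB5 have most of their points to the left, and LAMC1 has 11 of 17 points to the right of 0.

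COL4A1 and COL4A2 encode the alpha1 and alpha2 chains that join, 2 to 1, in the major type IV collagen of basement membranes, and they are neighbours on chromosome 13 with opposite strands. COL4A1 (ENSG00000187498.16) had 8 DMSO and 7 AVJ16 peaks, which all lay in its 1400 nt 3'UTR. They covered 48.1% of it with DMSO and 33.3% with AVJ16, where the median over all genes with a 3'UTR peak was 10.4% and 10.2%. Enrichments ran from 3.26 to 5.47 with DMSO and from 3.39 to 4.91 with AVJ16, so the lists overlapped in range. Of its 5 shared peaks, 4 were lower with AVJ16 by more than 0.5. The peak 474 to 580 nt after the stop codon had 5.12 with DMSO, and its AVJ16 partner had 3.39, a difference of -1.73, the most negative of the 90 shared DMSO peaks. This DMSO peak also met another AVJ16 peak, of 4.03, a difference of -1.10, so the size of the fall depends on how the region was split. The peak at 45 to 147 nt had 5.03 and 3.57, a difference of -1.46. The 3 COL4A1 peaks without a partner had DMSO enrichments of 3.26, 3.63 and 3.70, below those of the shared ones. The peak whose letters are printed above, 790 to 876 nt after the stop codon, was the most enriched of all collagens with DMSO, and it kept 4.91 with AVJ16.

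COL4A2 (ENSG00000134871.19) had 7 peaks with DMSO and 10 with AVJ16, covering 33.0% and 42.7% of its 1018 nt 3'UTR. Its differences went both ways: 3 of 5 shared peaks were lower, and 1 was higher. The peak at 327 to 415 nt had 5.29 with DMSO and 4.59 with AVJ16, while the peak at 717 to 812 nt had 4.23 with DMSO and 5.37 at its AVJ16 partner, a difference of 1.15. That partner was 46 nt long and the most enriched collagen peak with AVJ16. The DMSO peak of 96 nt also met 2 other AVJ16 peaks, of 3.82 and 4.51, so the region was split differently in the lists. When differences were averaged over the nucleotides covered in both lists, COL4A2 had -0.25 and COL4A1 -0.71. In the coding sequence of COL4A2, a peak in the last exon was shared (3.90 and 3.36), and those in exons 24 and 41 (DMSO) and 47 (AVJ16) were each in 1 list.

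COL4A5, on the X chromosome, encodes a chain of a more specialised type IV network. It had 3'UTR peaks with DMSO only, of 3.03 and 3.46, both close to the threshold. No peak was listed for COL4A3, COL4A4 and COL4A6.

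COL6A1 (ENSG00000142156.16), a chain of the beaded-filament collagen VI, had 10 DMSO and 9 AVJ16 peaks within the 1035 nt of its 3'UTR in the canonical transcript. They covered 52.8% and 49.9% of it, the highest share of any member with DMSO. All 10 DMSO peaks were shared, and the differences ran only from -0.40 to 0.64 with a median of -0.097. The most enriched peak, printed above, had 4.91 with DMSO and 4.51 with AVJ16. The differences over the 10 peaks span less than those of COL4A1, although no test of this contrast could be made. Part of the 3'UTR at this peak is coding in another isoform, which is why 1 DMSO and 2 AVJ16 peaks of COL6A1 were counted as coding above.

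The fibrillar and other collagens had few peaks. COL3A1, the type III chain, had 3 with DMSO and 1 with AVJ16. The shared 3'UTR peak had 4.21 and 3.52, and a peak across its stop codon, with 4.09, was listed with DMSO only. COL5A1 had 3.73 with DMSO and 4.21 with AVJ16 at its shared 3'UTR peak, and COL5A2, which assembles with it in type V collagen, had 2 peaks with AVJ16 only, of 4.09 and 3.78. COL12A1, a collagen on the surface of fibrils, had 2 neighbouring peaks in both lists, with 3.94 and 4.61 in DMSO and 3.69 and 3.65 in AVJ16. COL25A1, a transmembrane collagen, had 1 AVJ16 peak with 3.94. Its −log10 p was 4.17, and those of the COL5A2 peaks were 3.08, all near the lower limit of the list.

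COL18A1, the source of endostatin, differed in region from all other members. Its 6 DMSO peaks were all in distal introns (the nearest exon over 500 nt away), with enrichments of 3.03, 3.03, 3.32, 3.38, 4.10 and 4.16, and no AVJ16 peak was listed. With AVJ16 no member had a distal intron peak (0 of 134, upper bound 2.79%). Over all protein-coding genes, distal introns held 5.15% of DMSO peaks and 1.93% of AVJ16 peaks, and 25.7% of the genes with a distal intron peak under DMSO had no AVJ16 peak of any kind.

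LAMC1 (ENSG00000135862.6), the gamma1 chain found in most laminin trimers, had the most peaks of all members, 18 in the DMSO and 24 in the AVJ16 list. Only 128 protein-coding genes had more with DMSO, and 65 with AVJ16. All lay in the 2802 nt 3'UTR, from 84 to 2716 nt after the stop codon with DMSO and from 83 to 2717 nt with AVJ16, and covered 40.9% and 40.5% of it. The higher peak number with AVJ16 thus came with a similar covered length, 1146 nt with DMSO and 1134 nt with AVJ16. The most enriched peak was the pyrimidine-rich one printed above, with 5.11 with DMSO and 4.69 with AVJ16, and it led the laminins in both lists. Of 17 shared peaks, 11 were above 0 and 6 below, with a median of 0.15 and a range of -0.72 to 0.87. Under the pairing by longest overlap, the peaks higher by more than 0.5 were both near the start of the 3'UTR. They were weak in DMSO, with 3.43 and 3.24. The AVJ16 peak matched to that of 3.24 spanned 135 nt and had 4.12. It extended over most of the adjoining DMSO peak of 3.87, where the difference was 0.25. Shorter overlaps held rises elsewhere. These were 0.69 at an AVJ16 peak 333 to 383 nt after the stop codon and 1.09 at one of 10 nt, 2637 to 2646 nt after it. The place of the rises thus depends on how the regions were split. The single peak lower by more than 0.5 had 4.22 with DMSO and a difference of -0.72.

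LAMB1, the beta1 chain, was bound in its coding sequence alone, in exons 4, 5 and 6 of 34 in both lists. Its 3 shared peaks had 3.46, 3.76 and 3.58 with DMSO and 4.02, 3.47 and 3.36 with AVJ16, a median difference of -0.21. The exon 4 DMSO peak, of 3.46, also met another AVJ16 peak, of 3.14, a difference of -0.32. The 3'UTR of LAMB1 is 152 nt long and had no peak. LAMA4, an alpha chain of vessel and muscle basement membranes, had a single 3'UTR peak with 4.48 in DMSO and 3.22 in AVJ16, a difference of -1.26.

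**Figure D4:**
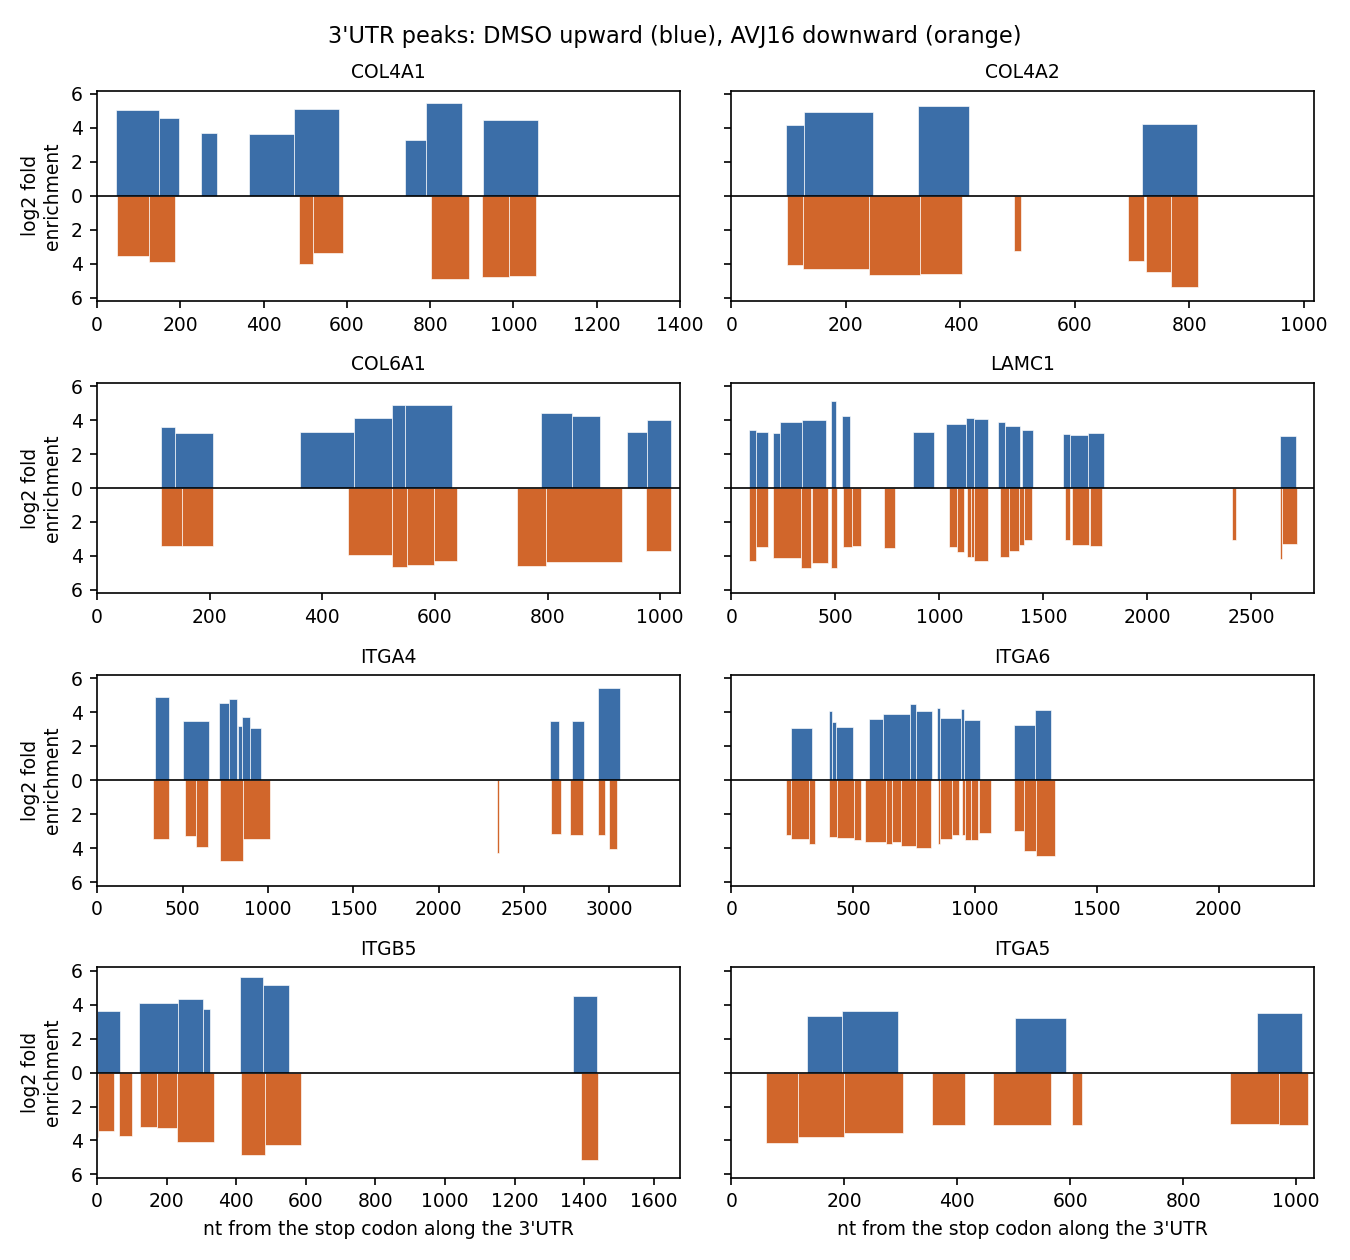
IGF2BP1 peaks along the 3'UTR of 8 genes, drawn by their distance from the stop codon (horizontal axis, nt) with their log2 fold enrichment as height, DMSO upward in blue and AVJ16 downward in orange. Most positions are used in both lists, and the tall DMSO peaks of COL4A1 and ITGB5 face lower AVJ16 peaks while those of COL6A1 face peaks of similar height.

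Among the laminin-binding alpha subunits, ITGA6 (ENSG00000091409.16), which pairs with ITGB1 or ITGB4, had 14 DMSO and 21 AVJ16 peaks. All lay in the first 1327 nt of its 2391 nt 3'UTR, and they formed 5 sites with DMSO and 8 with AVJ16. The covered part was 32.3% with DMSO and 37.3% with AVJ16. All 14 DMSO peaks were shared, 4 were lower with AVJ16, 1 was higher, and the median difference was -0.048, which turned to 0.017 when averaged per nucleotide covered in both lists. The highest enrichments were 4.48 with DMSO and 4.47 with AVJ16, at different places. The 4 lower peaks were short, 11, 25, 10 and 13 nt long in the DMSO list, and had 4.11, 4.48, 4.28 and 4.17 there. ITGA3 had 2 touching peaks with AVJ16 only, of 3.43 and 3.27, with −log10 p of 39.5 and 39.6. Those p-values were far from the lower limit, so enrichment was the threshold that these peaks were close to. ITGA7, the remaining laminin-binding subunit, had no peak.

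The collagen-binding subunits ITGA1 and ITGA2 were both bound in long 3'UTRs, and ITGA10 and ITGA11 were not listed. ITGA1 had 4 peaks with DMSO and 5 with AVJ16. Its shared peaks had 3.68, 3.86 and 3.52 with DMSO and 4.64, 3.66 and 3.76 with AVJ16, the highest difference being 0.96. ITGA2 had 3 peaks with DMSO, of 3.14, 4.45 and 3.15, and the AVJ16 partners had 3.08, 4.15 and 3.19. These lie within 0.30 of each other.

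The fibronectin and vitronectin receptor subunits ITGA5 and ITGAV recognise the RGD sequence in their ligands. ITGA5 (ENSG00000161638.11) had 4 peaks with DMSO and 9 with AVJ16, which covered 32.0% and 54.1% of its 1032 nt 3'UTR. None of its 4 shared peaks differed by more than 0.5. Of the AVJ16 peaks without a partner, the one at 62 to 118 nt after the stop codon had 4.15, the highest enrichment of ITGA5 in either list, and the others in the 3'UTR had 3.06 and 3.08. ITGAV had 3 peaks in each list, all between 3.00 and 3.24.

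ITGA4 (ENSG00000115232.14), which binds fibronectin and VCAM1, had 10 peaks in each list over a 3413 nt 3'UTR, covering 21.3% and 22.3%. Its differences had the widest spread of any member, from -1.45 to 1.55, with a median of -0.14. The peak 340 to 422 nt after the stop codon had 4.90 with DMSO and 3.45 with AVJ16. The peak near the end of the 3'UTR, printed above, had 5.42 and 4.04. This DMSO peak also met another AVJ16 peak, of 3.22, a difference of -2.20, so the size of the fall depends on how the region was split. Part of the printed letters lay between these AVJ16 peaks. The difference of 1.55 was at a 28 nt peak with 3.19 in DMSO whose partner, with 4.74, also overlaps neighbouring DMSO peaks of 4.53 and 4.77. Averaged per nucleotide covered in both lists, the difference of ITGA4 was -0.33.

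Among the beta subunits, ITGB5 (ENSG00000082781.12), the partner of ITGAV in a vitronectin receptor, had 9 peaks with DMSO and 11 with AVJ16. Its DMSO peak of 5.60, printed above, was the most enriched of all members, and its AVJ16 partner had 4.87. The adjoining peak had 5.17 and 4.27, and a peak over the stop codon had 4.52 and 3.78. The median over 8 shared peaks was -0.48, with 4 lower and 1 higher. The higher one, 1369 to 1437 nt after the stop codon, differed by 0.63 and had 5.13 with AVJ16, the most enriched integrin peak in that list. ITGB1, the partner of most of the alpha subunits above, had no 3'UTR peak. It had coding peaks in exons 10 and 9 of 16 with DMSO, of 3.12 and 3.06, which were 60 and 82 nt long. With AVJ16 the peaks were in exon 7, of 3.38 and 3.54, and only 2 and 25 nt long. None overlapped between the lists. ITGB3 had 1 AVJ16 peak, of 3.08, in a 3'UTR that a readthrough transcript on the same strand shares.

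Windows reaching 50 nt to either side of the centre of each 3'UTR peak were searched for 5 words on the RNA strand only. UUUCCGAA is the word the study's motif search put at the top, UCAUUC was taken from earlier results of these data, GGAC is the core of the m6A consensus, and ACAC and CAUU are short CA-containing words. CAUU lies within UCAUUC. The longer of these was in 6.38% of member windows with DMSO and 5.88% with AVJ16, close to the 5.75% and 5.62% of all 3'UTR peaks. UUUCCGAA was in none of the 94 member windows with DMSO (upper bound 3.93%) or the 119 with AVJ16 (upper bound 3.13%), and it was in 6 of 16625 and 5 of 16572 windows over all genes. Only exact copies of the word were counted. The study's motif search looked for enriched motifs and not for exact words, so these counts cannot be set against its shares and do not measure how often its motif occurs. ACAC was in 39.4% of member windows with DMSO (interval 30.1 to 49.5) and in 42.0% with AVJ16, compared with 29.3% and 29.8% of all 3'UTR peaks and 28.1% of 356 windows outside peaks in the same 3'UTRs. With 25 nt to either side the ACAC shares were 18.1% and 22.7%, against 16.6% and 17.4% of all peaks, so the distance from the background was smaller. CAUU was in 42.6% and 42.9%, against 53.9% and 52.5% of all 3'UTR peaks and 48.3% outside. GGAC was in 23.4% and 22.7%, against 19.3% and 20.4%. Windows of neighbouring peaks overlap, so these counts are not independent.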

How the data were processed

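IGF2BP1 eCLIP was analysed in H1299 cells given DMSO or AVJ16, grouped by treatment as labelled. The authors trimmed reads with cutadapt, removed repeat reads, mapped with STAR, removed PCR duplicates, called peaks with CLIPper and compared IP with paired SMInput. The −log10 p-value of each peak, which stops at 400, and its log2 fold enrichment were computed by the authors and deposited in that form, with both replicates in 1 list. The list names refer to IDR, and how replicates were combined is not described. The build is hg38 per the submitters' processing notes, and all peaks lay within its chromosomes.

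Peaks were assigned on their strand to protein-coding genes of GENCODE release 44, coding sequence taking precedence over UTRs, UTRs (3' first) over other exons, and exons over introns, which were proximal up to 500 nt from an exon and distal beyond. Of the peaks, 98.3% in both lists lay in such a gene. For each peak under DMSO, the partner was the peak under AVJ16 with the longest overlap, and the enrichments were subtracted. Calculations were done in Python 3.11.15 (pandas 2.3.3 and numpy 2.4.6), with pysam 0.24.0 for sequences, scipy 1.17.1 for intervals and matplotlib 3.10.9 for plots, and were tested on simulated data. Members, lists and alternatives were chosen with earlier results of these data known. Genes named in full have at least 5 peaks over both lists, the most enriched peak of a family, or one of the 3 largest rises or falls at a shared peak, and members with peaks in 1 list are named. RNA-seq, proteomics and the authors' own comparison tables were not used here. One member is counted in the totals and not reported by name here.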

Additional observations from a re-analysis of the deposited data

How the results depend on the processing

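No paired analysis was possible because the lists carry no values per replicate, and for the same reason no replicate could be left out. With an enrichment of at least 4 in both lists, 12 members were bound with DMSO, 14 with AVJ16 and 8 with both. The peaks then numbered 42 and 43, partners were found for 57.1% with DMSO and 65.1% with AVJ16, and 7 shared peaks were lower and 2 higher. With touching peaks joined, there were 87 AVJ16 sites. With an overlap of at least 50% of both peaks, 58.9% of DMSO and 49.3% of AVJ16 peaks had a partner, and 6 were higher. With a limit of 1, 5 were lower and 2 higher. Alternatives added after seeing the data gave 89 AVJ16 peaks without LAMC1 and ITGA6 and 4 higher peaks with an enrichment of at least 3.5. Other alternatives, among them a −log10 p of at least 5, centring, pairing from the AVJ16 peaks, differences per nucleotide and the addition of ITGBL1, moved these counts by less than 1.5 times or these shares by less than their intervals, and no direction over all members was reversed. Gene medians did change sign: ITGA6, -0.048, was 0.012 when centred, 0.017 per nucleotide and 0.026 with the 50% overlap, and LAMB1, -0.21, was 0.17 with that overlap. The change of the 8 motif shares with 25 nt to either side follows from the shorter window.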

Other observations

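Genes that work beside these families were counted from lists chosen with earlier results of these data known. Over all protein-coding genes, 25.8% had a peak with DMSO and 23.2% with AVJ16, and the lists were all above these shares. Expression was not taken into account, so no preference of IGF2BP1 for these genes is read from this. Of 33 basement membrane and other matrix glycoproteins, 16 had a peak with DMSO (48.5%) and 14 with AVJ16 (42.4%). NID1, the nidogen that links laminin and type IV collagen networks, had 19 and 26 peaks, and 8 of its 19 shared peaks were lower with AVJ16 by more than 0.5 and 2 higher. VCAN, a large proteoglycan, had 14 and 20 peaks, and FBN2, a microfibril protein, had 9 and 13, with none of its 9 shared peaks beyond 0.5. Of 72 shared peaks in this list, 18 were lower and 12 higher. Of 39 genes for collagen synthesis, crosslinking and turnover, 17 (43.6%) and 21 (53.8%) were bound, led by CRTAP, a subunit of the collagen prolyl 3-hydroxylation complex, with 18 and 19 peaks, and the metalloproteinase inhibitors TIMP2 (15 and 22) and TIMP3 (9 and 12). Among their 68 shared peaks, 7 were lower and 7 higher, and the median difference was 0.0047.

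Of 41 integrin adaptors and focal adhesion genes, 21 were bound with DMSO (51.2%, against 25.8% of all genes) and 20 with AVJ16 (48.8%, against 23.2%). VCL, the actin linker vinculin, had 28 and 33 peaks, more than any gene of the collagens, laminins and integrins, and its 28 shared peaks had a median difference of -0.040. CRKL had 12 and 10 peaks and PXN, paxillin, 8 and 11. Of 78 shared peaks in this list, 17 were lower and 4 higher. Of 19 other receptors for matrix, 12 were bound in each list (63.2%), with DAG1, dystroglycan, at 21 and 28 peaks, GPC6 at 17 and 11 and DDR2, a collagen receptor kinase, at 10 and 13. Their 60 shared peaks held 5 lower and 9 higher ones. Of all shared peaks, 20.1% were lower and 12.6% higher.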
